A study of Mus musculus with 37 samples.

Results

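The cortex on the side of a controlled cortical impact (ipsilateral) was compared with the cortex of the opposite side (contralateral) in astrocytes of mice that were injured but did not develop post-traumatic epilepsy (PTE-). The comparison rests on the 9 PTE- mice with a library of each hemisphere, that is 18 of the 37 libraries and 9 of the 20 mice of the series. Mice were named 8_9, 8_11, 8_13, 8_14, 9_12, 9_13, 9_15, 9_16 and 9_20 in the labels, and each difference given below is that between the 2 libraries of 1 animal, ipsilateral minus contralateral. They were male CD1 mice according to the methods, while the genotype label reads WT CD31 Injured. A unilateral impact was given through a craniectomy over the right parietal cortex, electrodes were implanted later for EEG, and tissue was taken 4 months after injury. The age of the mice at surgery is not given in the sources used here. Astrocytes of each hemisphere were dissociated with papain and captured with beads against ACSA-2, an astrocyte surface antigen, so each library is a bulk of 1 mouse and 1 side. The 5 sham mice with both hemispheres (labelled WT CD31 Sham, 10 libraries, 4 months) had the craniectomy and the electrodes without the impact, and give the same difference between sides. Of the 9 PTE- mice, 4 have a name that begins with 8 and 5 a name that begins with 9, and the sources do not say what this prefix stands for.

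Astrocytes respond to brain damage with reactive astrogliosis, in which they enlarge, build up intermediate filaments of GFAP and vimentin, and secrete acute-phase and complement proteins. Cytokines of the interleukin-6 family, among them ciliary neurotrophic factor (CNTF), act on astrocytes through the receptor subunit gp130 and the transcription factor STAT3. The contralateral cortex was not struck, but it belongs to the same injured animal and is therefore no uninjured control.

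The labelled cell type was checked against marker genes first. The 14 astrocyte identity genes together took 22828 to 30545 TPM (a gene's transcripts per 1000000 transcripts of its library) in contralateral libraries and 21065 to 28748 TPM in ipsilateral libraries. Mean levels were 2145 and 2146 TPM for Slc1a3, a glutamate transporter, and 10460 and 10066 TPM for Aldoc, a glycolytic enzyme enriched in astrocytes. Libraries also held RNA of other cells. The 14 oligodendrocyte and myelin genes summed to 876 to 3813 TPM contralaterally and 887 to 2308 TPM ipsilaterally, and the 14 microglia and macrophage genes to 223 to 479 and 207 to 615 TPM. Mean Mbp, a myelin component, was at 1323 and 784 TPM, and mean Itgam, a microglial integrin, at 1.13 and 1.33 TPM. Genes above 0 TPM numbered 15815 to 18534 (median 16518) in contralateral and 15599 to 18319 (median 16529) in ipsilateral libraries. TPM keep no sequencing depth, so the reads behind each value are unknown and no counting error is given.

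The ipsilateral hemisphere of PTE- mice held more of the classical genes of reactive astrocytes, of complement and of CNTF, and less of myelin genes and of Olig2. Of 10359 genes with a mean above 5 TPM on at least 1 side, 616 (5.95%) were differentially expressed genes (DEGs), which here means an unadjusted p under 0.05 in limma, with the mouse as a block, and a fold change of at least 1.2. Of these, 404 (3.90% of tested genes) were higher and 212 (2.05%) lower on the injured side. Without the fold limit 935 genes (9.03%) passed. After Benjamini-Hochberg adjustment in limma a single gene was called at 0.05, C4b, and the median difference over all tested genes was -0.006 on the log2(TPM + 1) scale. The split between higher and lower genes depended on the scaling of the libraries: DEGs were 338 of 629 higher after quantile normalization and 367 of 615 after centring each library on its median. Direction was also counted by mouse. All 9 mice were higher on the injured side for 58 genes (0.560%) and lower for 45 genes (0.434%), and 177 of the higher and 96 of the lower DEGs moved the same way in at least 8 of 9 mice. In the plot of all tested genes, C4b stands apart at the top and the DEGs beyond a difference of 1 in size are mostly on the positive side, with Gm10217 (-2.40), Gm11032 (-1.85) and Mog (-1.08) on the negative side.

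**Figure D1:**
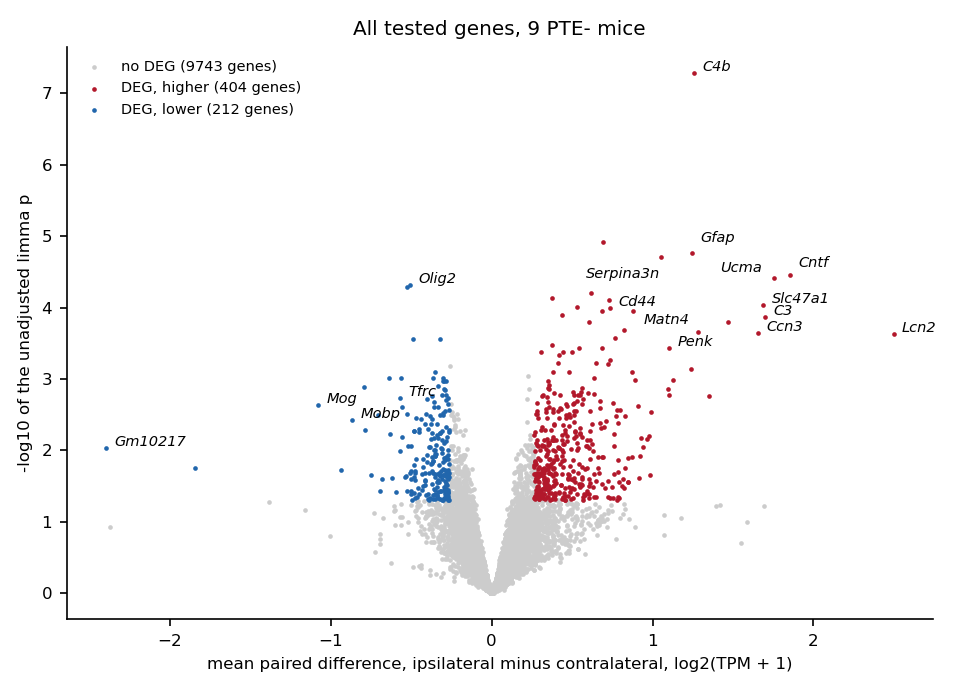
Each point is 1 of 10359 tested genes in 9 PTE- mice, with the mean paired difference (ipsilateral minus contralateral, log2(TPM + 1)) on the horizontal axis and -log10 of the unadjusted limma p on the vertical axis. The 404 higher DEGs are red, the 212 lower DEGs blue, and C4b, with a difference of 1.26, has the smallest p.

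The promoters of 3 genes are shown because Gfap, Serpina3n and Cntf are among the genes that rose in 9 of 9 mice, and are known as a filament and a secreted protein of reactive astrocytes and as a ligand of the gp130-STAT3 pathway. Each is the 250 bases before the RefSeq start of the gene on GRCm38.p6, in the direction of transcription, and capitals mark a match to the AP-1 motif TGANTCA or the STAT motif TTCNNNGAA. Gfap lies on chr11:102897201-102897450 (minus strand), Serpina3n on chr12:104406458-104406707 (plus strand) and Cntf on chr19:12765633-12765882 (minus strand).
Gfap: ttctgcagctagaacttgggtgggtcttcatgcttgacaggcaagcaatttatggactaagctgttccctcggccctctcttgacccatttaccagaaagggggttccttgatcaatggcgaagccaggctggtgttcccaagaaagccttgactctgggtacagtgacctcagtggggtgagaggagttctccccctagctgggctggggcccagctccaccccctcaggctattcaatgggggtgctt
Serpina3n: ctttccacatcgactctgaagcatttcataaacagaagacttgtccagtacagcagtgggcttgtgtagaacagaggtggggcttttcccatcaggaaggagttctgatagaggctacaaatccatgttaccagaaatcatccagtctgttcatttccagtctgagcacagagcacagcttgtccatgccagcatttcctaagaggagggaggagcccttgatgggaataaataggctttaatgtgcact
Cntf: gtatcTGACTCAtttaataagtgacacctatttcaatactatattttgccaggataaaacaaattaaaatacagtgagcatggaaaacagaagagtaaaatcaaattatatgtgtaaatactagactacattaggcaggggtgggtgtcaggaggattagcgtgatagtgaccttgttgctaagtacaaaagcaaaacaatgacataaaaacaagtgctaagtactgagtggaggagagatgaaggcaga
The 1 match in these stretches is the AP-1 motif that begins 245 bases before the start of Cntf, and neither set of letters is in those of Gfap and Serpina3n. Over the whole 300-base windows (250 bases before to 50 after the start, either strand; a gene with several starts counts if 1 of them matches), the STAT letters were in 34 of 298 higher DEGs with a window (11.4%), in 11 of 151 lower DEGs (7.28%) and in 670 of 8218 tested genes (8.15%). The AP-1 letters were in 20 of 298 (6.71%), 14 of 151 (9.27%) and 483 of 8218 (5.88%). These shares are descriptions with no test, and a match of letters is no binding site.

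Gfap, the intermediate filament that defines reactive astrocytes, ranged from 117 to 560 TPM (median 288) in the contralateral and from 475 to 1065 TPM (median 606) in the ipsilateral hemisphere. It was higher on the injured side in 9 of 9 mice, and 7 ipsilateral libraries lay above every contralateral one. The mean difference was 1.25 ± 0.70 on the log2(TPM + 1) scale (SD, n = 9 mice; exact sign-flip permutation p = 0.00391, the smallest that 9 pairs allow), a 2.37-fold change, with an adjusted p of 0.0502 in limma. Its size varied between animals, from 0.10 in mouse 9_13 to 2.15 in mouse 8_11. Vim, the partner filament vimentin, rose by 0.59 ± 0.71 (exact p = 0.0469), from a median of 91.8 TPM (62.5 to 156) to 155 TPM (86.0 to 225), with 8 mice higher and mouse 9_12 lower by 0.85. Cd44, the hyaluronan receptor of reactive and fibrous astrocytes, rose in 9 of 9 mice, by 0.74 ± 0.36 (exact p = 0.00391), from 2.10 to 8.70 TPM contralaterally to 5.84 to 14.7 TPM ipsilaterally. S100a6, a small calcium-binding protein, rose by 0.47 ± 0.44 in 8 of 9 mice (exact p = 0.0117). Of the 11 tested members of the list of reactive filaments and cytoskeleton, these 4 rose and 0 fell, against 3.90% and 2.05% of all genes, and the median difference of the list was 0.39 against -0.006 over all tested genes. The other 7 were no DEGs, among them Anxa2 (annexin A2, 0.42), S100a10 (0.39), Synm (synemin, 0.30) and Cryab (a small heat shock protein, -0.09).

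**Figure D2:**
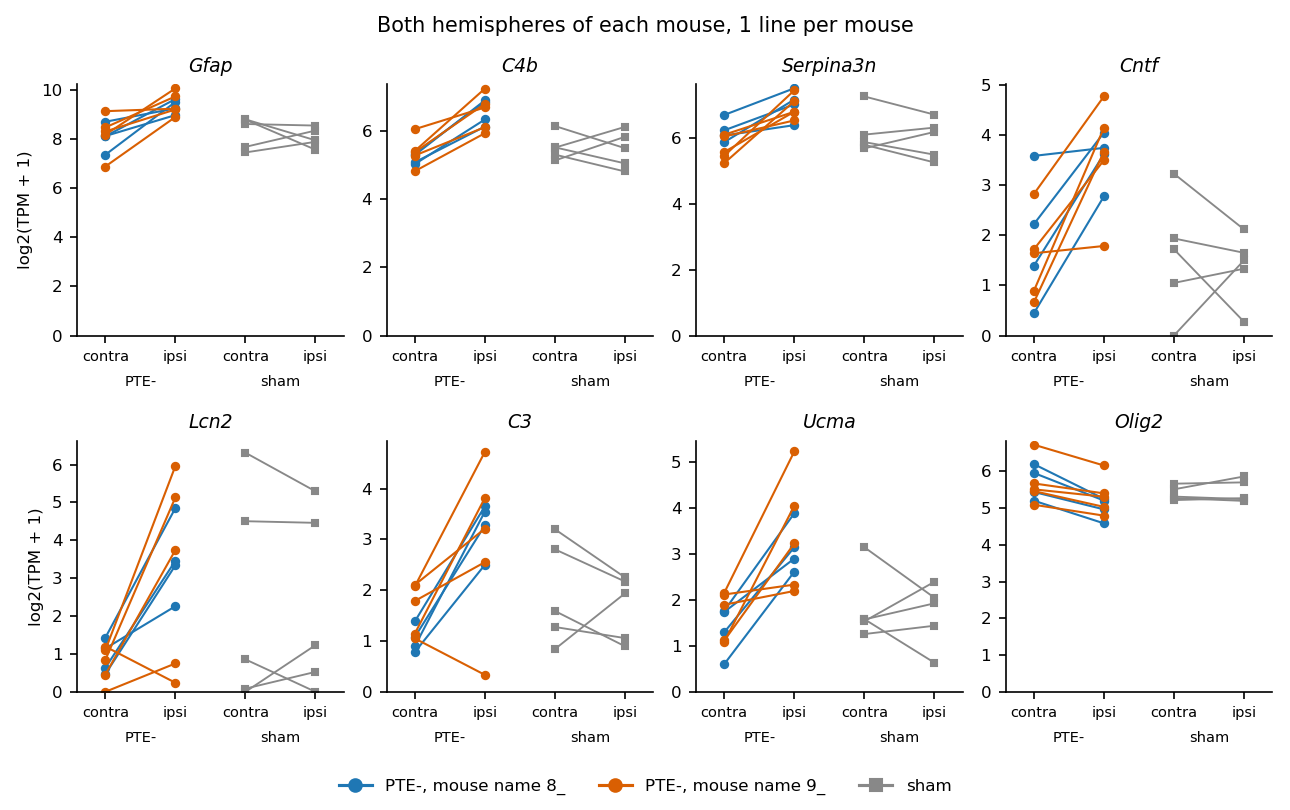
The level of 8 genes, as log2(TPM + 1), is drawn for both hemispheres of each mouse, 1 line per mouse (blue, PTE- mice with names in 8; orange, PTE- mice with names in 9; grey, sham mice). For Gfap, C4b, Serpina3n, Cntf and Ucma all 9 PTE- lines rise, and for Olig2 all 9 fall.

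Acute-phase genes rose as well. Serpina3n, a secreted serine protease inhibitor and a common marker of reactive astrocytes, ranged from 36.5 to 102 TPM (median 64.6) contralaterally and from 82.3 to 180 TPM (median 128) ipsilaterally, and 7 ipsilateral libraries lay above every contralateral one. It rose in 9 of 9 mice by 1.05 ± 0.59 (exact p = 0.00391; adjusted p 0.0502 in limma). Reads of its near-identical neighbours may be shared with it, and Serpina3i, listed at a mean of 1.57 and 5.15 TPM, differed by 1.24 in the same direction. Lcn2, lipocalin 2, an iron-carrier protein of the acute phase, had the largest mean difference of all DEGs that moved the same way in at least 8 mice: 2.5 ± 1.85 (exact p = 0.0117; adjusted p 0.102 in limma). It ranged from 0.00 to 1.69 TPM (median 0.79) contralaterally and from 0.18 to 61.3 TPM (median 10) ipsilaterally. Lcn2 was lower in mouse 9_16, at -0.96, and in mouse 9_12 both sides were below 1 TPM. Aspg, an asparaginase, rose in 9 of 9 mice by 0.46 ± 0.41 (exact p = 0.00391). Timp1, an inhibitor of metalloproteinases, was a DEG at 0.93 (2.21 to 6.05 TPM, means) and S1pr3, a sphingosine phosphate receptor, at 0.32. Of the 11 tested pan-reactive and acute-phase genes, which include Gfap and Vim, 7 rose and 0 fell, with a list median of 0.53. That is 63.6% called, against 5.95% of all tested genes. The members without a call were Cxcl10 (a chemokine, 0.53), Cp (ceruloplasmin, 0.19), Fbln5 (0.12) and Hspb1 (-0.18). The summed level of the list was higher ipsilaterally in 9 of 9 mice, from 415 to 922 TPM contralaterally to 792 to 1595 TPM ipsilaterally.

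The order of the mice differed between these genes, which is given as a description with no test. Mouse 9_13 had the smallest Gfap difference, 0.10, and the largest of Serpina3n, 1.99, while mouse 9_12 had 2.01 for Gfap and 0.49 for Serpina3n. Mice 9_15 and 8_11 were high in both, with 1.88 and 1.88 in 9_15 and 2.15 and 1.29 in 8_11. C4b stayed between 0.64 and 1.83 in all 9.

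C4b, complement component 4, which marks targets for opsonisation in the classical pathway, had the smallest limma p of all tested genes. It ranged from 27.4 to 65.8 TPM (median 38.5) in the contralateral hemisphere and from 60.5 to 151 TPM (median 103) in the ipsilateral one. All but 1 of the 9 ipsilateral libraries were above every contralateral library. C4b rose in 9 of 9 mice by 1.26 ± 0.38 (exact p = 0.00391; adjusted p 0.000536 in limma), a 2.39-fold change, and without each mouse in turn the difference stayed between 1.19 and 1.34. C3, the convergence point of the complement cascades, rose from 0.72 to 3.30 TPM (median 1.21) to 0.26 to 25.4 TPM (median 8.67). In 8 mice the ipsilateral library was above every contralateral one, and mouse 9_12, at 0.26 TPM, was below them all. Its difference was 1.70 ± 1.14 (exact p = 0.00781; adjusted p 0.0785 in limma). Among 10 tested complement genes 2 rose, C4b and C3, and 1 fell (30% called against 5.95% of all tested genes). The median was 0.38. C1qa, C1qb and C1qc, subunits of the initiator C1q and made by microglia, differed by 0.39, 0.41 and 0.29, and Serping1, the inhibitor of C1, by 0.30, without passing the threshold.

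Cntf, the ligand, ranged from 0.36 to 11 TPM (median 2.12) contralaterally and from 2.45 to 26.3 TPM (median 11.7) ipsilaterally. It rose in 9 of 9 mice by 1.85 ± 1.09 (exact p = 0.00391; adjusted p 0.0663 in limma), although the ranges overlapped and mice 9_12 and 8_13 stood at 0.15 and 0.16. Cntf lies inside the annotated span of Zfp91 on the same strand, so reads of the 2 genes may be hard to separate. Zfp91 itself differed by -0.14. Il6st, which encodes gp130, rose by 0.37 ± 0.44 (exact p = 0.0273), a call that is lost without mouse 9_12 (0.26). Cntfr, the receptor subunit for CNTF, was abundant and differed by 0.20 (115 and 136 TPM, means). Stat3 itself differed by 0.22 (69.0 and 81.4 TPM; unadjusted limma p = 0.0493), under the 1.2-fold limit, and Jak1, the kinase, by 0.07. The feedback inhibitors Socs3 and Socs2 differed by 0.38 and 0.50 without a call. Of 10 tested genes of this pathway 2 rose and 0 fell (20% called against 5.95% of all tested genes), with a median of 0.21.

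The share of all tested genes with no overlap between hemispheres was not counted. Ucma, a small matrix protein of cartilage, had none, by a narrow gap at low TPM. Its highest contralateral value was 3.46 TPM and its lowest ipsilateral value 3.58 TPM (medians 2.34 and 7.86), and it rose by 1.76 ± 1.02 in 9 of 9 mice (exact p = 0.00391; adjusted p 0.0663 in limma). Ccn3, a matricellular protein, rose from a median of 5.90 to 20.4 TPM, by 1.66 ± 1.22 (exact p = 0.0117). It was higher in 8 mice and lower in mouse 9_12, by 0.43. Matn4, matrilin 4, an extracellular adaptor protein, rose in 9 of 9 mice by 1.28 ± 0.94 (exact p = 0.00391), from 6.01 to 84.8 TPM (median 10.6) to 11.6 to 105 TPM (median 37.2), so that the ranges overlapped widely. Its difference was 0.02 in mouse 8_13, and 0.55 and 1.87 on average in mice with names in 8 and 9. Slc43a3, a purine base transporter, rose in 9 of 9 mice by 1.47 ± 1.02 (exact p = 0.00391). Slc47a1, an organic cation extruder that is also a marker of meningeal cells, rose by 1.69 ± 1.04 (exact p = 0.00781), from 0.00 to 3.42 TPM (median 0.50) to 0.00 to 10.5 TPM (median 7.01). Mouse 9_12 had it listed at 0 on both sides.

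Values for the cell type that could carry Slc47a1 stand beside it. The 14 mural, meningeal and fibroblast markers summed to 1170 to 11353 TPM contralaterally and 1829 to 4413 TPM ipsilaterally, and the sum was higher on the injured side in 4 of 9 mice. Of 11 tested members Slc47a1 was the 1 call higher and Rgs5 the 1 call lower (18.2% called against 5.95% of all tested genes). The fibroblast genes went in both directions: Dcn (means of 60.4 and 47.9 TPM) and Lum (6.77 and 5.64 TPM) differed by -0.30 and -0.23, and the collagen genes Col1a2 (9.03 and 10.7 TPM) and Col3a1 (4.48 and 5.33 TPM) by 0.23 and 0.21, all without a call. Col1a1 and Prg4, under the filter on TPM, differed by 0.15 and 0.29. Their part in the result for Slc47a1 was not tested.

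Penk, the precursor of the enkephalins, rose by 1.10 ± 0.80 in 8 of 9 mice (exact p = 0.0117), from 1.13 to 8.45 TPM (median 3.61) to 3.78 to 25.5 TPM (median 7.15). Sham mice had a mean of 12.1 TPM on either side, above the PTE- means of 3.81 TPM contralaterally and 9.53 TPM ipsilaterally. Among the 11 tested neuropeptide and processing genes 4 rose (Penk, Nnat at 0.34, Cck 0.56 and Scg2 0.33) and 0 fell, the calls of the last 3 being lost without 1 mouse or another, and the median was 0.33. The calls were 36.4% of the list, against 5.95% of all tested genes. Pam, which amidates peptides, differed by -0.08 ± 0.26 (exact p = 0.379). Npy had the largest difference of the list, 1.59 (means 530 and 1091 TPM), with only 4 of 9 mice higher and no call. The 12 tested neuronal markers stood beside these at a median of 0.27. Gad1, which makes GABA, was their 1 call and rose by 0.31 ± 0.29 (exact p = 0.0273; call lost without mouse 8_9), and their summed level was higher ipsilaterally in 7 of 9 mice, from 71.6 to 1281 TPM to 141 to 1116 TPM. The mean log2 ratio of this neuronal sum was 0.21 ± 0.90 in PTE- mice and 0.20 in sham mice, where 3 of 5 were higher. The part of neuronal RNA in the peptide genes was not tested.

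Thbs4, a thrombospondin made by reactive astrocytes, rose by 1.10 ± 0.99 in 7 of 9 mice (exact p = 0.0156), from 3.63 to 20.4 TPM to 9.84 to 42.2 TPM. Lamb2, a laminin chain, rose by 0.39 ± 0.41 (exact p = 0.0156). They were the 2 calls among 17 extracellular matrix genes (11.8% against 5.95% of all tested genes, median 0.08). The proteoglycans Bcan and Ncan, brevican and neurocan, differed by 0.05 and -0.08.

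Mgst1, a microsomal glutathione transferase, rose in 9 of 9 mice by 0.51 ± 0.47 (exact p = 0.00391), from 110 to 284 TPM (median 202) to 202 to 370 TPM (median 288). In mouse 8_9 the rise was nil, from 201.52 to 201.86 TPM. Nqo1, a quinone reductase, rose by 0.42 ± 0.39 and Hmox1, haem oxygenase 1, by 0.28 ± 0.17 (exact p = 0.00781 for each), both in 8 of 9 mice. The call of Hmox1 is lost without mouse 9_12 or 9_15. The other 14 tested genes of NRF2 and glutathione defence had no call, Nfe2l2 (NRF2 itself) lay at -0.10 and the list median at 0.05. The 3 calls were 17.6% of this list, against 5.95% of all tested genes. Bbox1, the last enzyme of carnitine synthesis, rose by 0.59 ± 0.65 (exact p = 0.0273) as the 1 call among 15 fatty acid oxidation and lipid droplet genes. Psap, the precursor of saposins, rose by 0.36 ± 0.41 (exact p = 0.0234) as the 1 call among 15 lysosomal genes. Cst3, cystatin C, one of the most abundant transcripts, was at 21907 to 30374 TPM contralaterally and 25770 to 36883 TPM ipsilaterally, a difference of 0.18 ± 0.18 (exact p = 0.0352) that is under the fold limit and is -0.00 after quantile normalization.

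Enzymes of sterol synthesis leaned the other way. Msmo1, a methylsterol monooxygenase, fell by 0.36 ± 0.33 (exact p = 0.00781), from 643 to 1228 TPM (median 907) to 503 to 862 TPM (median 719). Idi1, isopentenyl diphosphate isomerase, fell by 0.37 ± 0.35 (exact p = 0.0117). Both were lower in 8 of 9 mice. They were the 2 calls among 17 sterol genes (11.8% against 5.95% of all tested genes), whose median was -0.16. Hmgcs1, Fdft1, Cyp51, Fdps and Dhcr7 had unadjusted limma p-values of 0.00306, 0.00347, 0.00523, 0.0349 and 0.0333 but differences of -0.22, -0.23, -0.26, -0.15 and -0.22, under the fold limit. Apoe and Clu, lipoproteins of astrocytes, differed by 0.16 and 0.14.

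Genes of normal astrocyte function differed little. Glul, glutamine synthetase, which turns glutamate into glutamine, fell by 0.29 ± 0.23 (exact p = 0.0156), from 2080 to 3301 TPM (median 2722) to 1959 to 2727 TPM (median 2138), lower in 8 of 9 mice. The call is lost without mouse 9_15 or 9_16. It was the 1 call among 14 astrocyte identity genes, whose median was -0.03. The glutamate transporters Slc1a2 and Slc1a3 differed by -0.12 ± 0.17 (exact p = 0.082) and by -0.00. Aqp4, the water channel of the endfeet, differed by 0.21 ± 0.22 (exact p = 0.0195) in 7 of 9 mice, which is under the 1.2-fold limit. Kcnj10, the potassium channel Kir4.1, differed by -0.04 ± 0.43 (exact p = 0.789), and Gja1, connexin 43, by -0.07 ± 0.29 (exact p = 0.465).

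Calls among the transport genes went in both directions. Fxyd1, a regulator of the sodium pump, rose by 0.35 ± 0.28 (exact p = 0.0156), with 6 of the 9 ipsilateral libraries above every contralateral one. Kcnk1, a two-pore potassium channel, fell by 0.30 ± 0.22 (exact p = 0.0117), a call lost without mouse 8_14. They were the 2 calls among 14 potassium, water and endfoot genes (14.3% against 5.95% of all tested genes, median -0.01). Gria1, an AMPA receptor subunit, rose by 0.53 ± 0.54 (exact p = 0.0234), and Slc38a5, a glutamine exporter, fell by 0.47 ± 0.76 (exact p = 0.105), a call lost without any 1 of 5 mice. With Glul, 3 of 15 glutamate and GABA genes were called (20%), 1 higher and 2 lower (median -0.05). Chrdl1, a secreted protein that matures synapses, fell in 9 of 9 mice by 0.33 ± 0.23 (exact p = 0.00391).

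Of all tested genes 5.95% were DEGs, so that lists of 5 to 21 genes with 0 calls or 1 lie near the background and say little about these programmes. The 20 tested interferon and antigen presentation genes had 0 DEGs (median 0.13), 15 immediate early genes 0 (median -0.16), 13 clock genes 0 (median -0.10), 8 metallothionein and zinc genes 0 (median -0.04), 7 cell cycle genes 0 (median -0.00) and 5 gap junction genes 0 (median -0.07). By unadjusted limma p alone, Gjb6, connexin 30 (-0.17, p = 0.0175), and Dbp, a clock output factor (-0.16, p = 0.0297), were under 0.05, and 0 genes of the other 4 lists were. Among 8 tested chemokines and cytokines, Csf1 (0.35 ± 0.35; exact p = 0.0234) and Cx3cl1 (0.40 ± 0.52; exact p = 0.0391) rose and Il33, an alarmin of astrocytes and oligodendrocytes, fell in 9 of 9 mice (-0.28 ± 0.20; exact p = 0.00391), 37.5% of the list. The call of Cx3cl1 is lost without mouse 8_9 or 8_14 and that of Il33 without mouse 8_11 or 9_20. Hes1, a Notch target, fell by 0.38 ± 0.48 (exact p = 0.0508) as the 1 call among 21 Notch, hedgehog and BMP genes. Hspb8 rose by 0.32 ± 0.34 as the 1 call among 14 chaperones, lost without mouse 9_20, and Tsc22d3, a glucocorticoid target, fell by 0.30 ± 0.22 as the 1 call among 9 glucocorticoid response genes, lost without mouse 8_14. Slc2a1, the glucose transporter GLUT1, was the 1 call among 17 glycolysis and glycogen genes, lost without mouse 9_12. Fos, at 17.7 to 831 TPM contralaterally and 32.7 to 453 TPM ipsilaterally, differed by 0.07 ± 1.29 (exact p = 0.863), from -2.34 in mouse 8_14 to 1.21 in mouse 9_15.

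**Figure D3:**
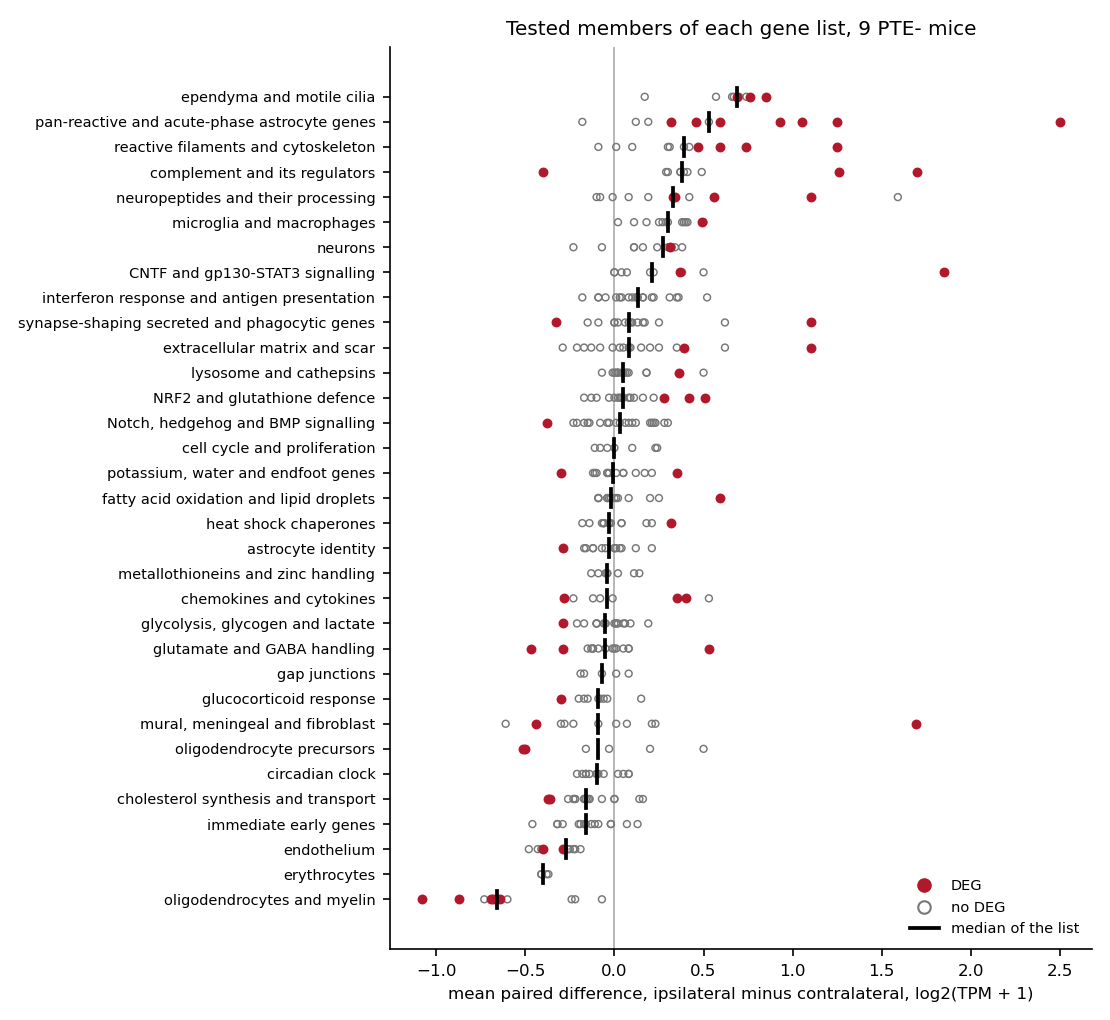
Each row is a gene list and each point a tested member, placed by its mean paired difference (ipsilateral minus contralateral, log2(TPM + 1), 9 PTE- mice). Filled red points are DEGs, open points are not, and black bars mark list medians, which run from -0.66 for oligodendrocytes and myelin to 0.69 for ependyma and motile cilia.

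Olig2, a transcription factor of the oligodendrocyte lineage that some astrocytes also express, had the smallest limma p among the 212 lower DEGs. It ranged from 33.2 to 105 TPM (median 44.7) contralaterally and from 23.1 to 70.7 TPM (median 36.0) ipsilaterally and was lower in 9 of 9 mice, by 0.20 to 0.95. The mean difference was -0.51 ± 0.24 (exact p = 0.00391; adjusted p 0.0663 in limma). Of the 6 tested oligodendrocyte precursor genes 2 fell and 0 rose (33.3% called against 5.95% of all tested genes, median -0.09). The other call was Bcas1, a gene of maturing oligodendrocytes, at -0.50 with 3 of 9 mice higher, and it is lost without any 1 of 5 mice. Olig1, the partner of Olig2, differed by -0.16, Cspg4 by -0.03, Neu4 by 0.20 and Sox10 by 0.50 (unadjusted limma p = 0.0563), none of them called.

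Myelin genes fell in part. Mog, a myelin surface glycoprotein, fell by 1.08 ± 1.04 (exact p = 0.0273), from 2.96 to 27.8 TPM (median 14.7) to 0.67 to 9.29 TPM (median 6.96), in 8 of 9 mice. Mal, a myelin proteolipid, fell by 0.64 ± 0.51 (exact p = 0.0156), and Mobp by 0.87 ± 0.92 (exact p = 0.0312). Mbp and Hapln2 were DEGs in limma at -0.68 ± 1.02 and -0.69 ± 1.06, with exact p-values of 0.0938 and 0.0898, and the calls are lost without any 1 of 3 mice for Mbp (-0.49 without 9_15) and of 6 mice for Hapln2 (-0.54 without 9_16). In total 5 of 10 tested oligodendrocyte and myelin genes fell and 0 rose, against 2.05% and 3.90% of all genes, with a list median of -0.66. Cnp and Mag, also of myelin, differed by -0.07 and -0.73 without a call. The decrease was found mostly in mice with names in 9: Mobp differed by -1.40 there and by -0.21 in those with names in 8, and Mbp by -1.25 and 0.03. Because libraries are bulk, fewer cells of a type and less RNA per cell cannot be told apart.

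Other genes with large falls belonged to varied groups. Tfrc, the transferrin receptor, which imports iron, fell in 9 of 9 mice by 0.57 ± 0.48 (exact p = 0.00391), from 10.1 to 22.9 TPM (median 18.7) to 6.73 to 18.8 TPM (median 11.7). Eps8l2, an actin-capping protein, fell by 0.79 ± 0.65 (exact p = 0.00781), and Vegfc, a lymphangiogenic growth factor, by 0.71 ± 0.64 (exact p = 0.0117). In each of the pair, 5 ipsilateral libraries lay below every contralateral one. Cytl1, a secreted cytokine-like protein, fell by 0.94 ± 1.25 (exact p = 0.0586), with mouse 9_20 opposite at 1.97. Rhobtb1 fell by 0.63 ± 0.59 (exact p = 0.0156) and Rasd1, a Ras-like GTPase, by 0.60 ± 0.89 (exact p = 0.043), the latter no DEG without mouse 8_11, 8_13, 9_12 or 8_14 (-0.34 without 8_14). Gm2026 fell by 0.78 ± 0.79 (exact p = 0.0117). Gm10217 is listed at 0 in 6 ipsilateral libraries, those of mice 8_14, 9_12, 9_13, 9_15, 9_16 and 9_20, where the contralateral values were 8.86, 12.4, 14.3, 19.3, 29.6 and 10.7 TPM. Mice 8_11 and 8_13 had 73.2 and 48.5 TPM contralaterally and 18.3 and 32.2 TPM ipsilaterally, while mouse 8_9 had 0 and 25.8 TPM (exact p = 0.0547 over the 9 mice). Gm2026 and Gm10217 are predicted genes of this annotation.

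Vascular markers leaned to lower values, with 20% of the tested endothelial markers called against 5.95% of all tested genes. The 12 endothelial markers summed to 747 to 1602 TPM (median 1229) contralaterally and 602 to 1042 TPM (median 850) ipsilaterally, lower in 7 of 9 mice. Of 10 tested, Pecam1, an adhesion molecule (-0.40 ± 0.63; exact p = 0.0977), and Slc2a1 (-0.29 ± 0.20; exact p = 0.00391), were lower DEGs, the former lost without any 1 of 7 mice and the latter without mouse 9_12, and the median was -0.27. Sham mice leaned the same way: the mean log2 ratio of the endothelial sum was -0.25 in them and -0.33 in PTE- mice, Pecam1 differed by -0.27, Slc2a1 by -0.21, Flt1 by -0.50 (-0.48 in PTE- mice) and Slco1a4 by -0.39 (-0.41). Of 11 endothelial markers compared with sham 1 was a DEG, Abcb1a, at -0.19 in PTE- and -0.97 in sham mice. Of the pericyte genes Rgs5 fell by 0.44 ± 0.43 (exact p = 0.0156), with -0.47 in sham mice, and Pdgfrb differed by 0.07 with 6 of 9 mice higher. Their part in the falls of Vegfc, Tfrc and Slc38a5 was not tested.

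Markers of ependyma and motile cilia leaned to higher values. Foxj1, the master regulator of motile cilia (0.85 ± 1.07; exact p = 0.0547), Tekt1, an axonemal protein (0.69 ± 0.87; exact p = 0.0508), and Pifo (0.76 ± 1.29; exact p = 0.125) were higher DEGs in limma, the call of Pifo being lost without any 1 of 7 mice. The 3 calls were 33.3% of the tested list, against 5.95% of all tested genes. All 9 tested members were positive with a median of 0.69, each in 7 of 9 mice. Their sum was 287 to 1266 TPM (median 462) contralaterally and 445 to 1104 TPM (median 817) ipsilaterally. The difference of the sum was positive in all 4 mice with names in 8, from 0.66 to 1.12 (log2 ratio), and ran from -1.41 in mouse 9_12 to 1.56 in mouse 9_15 among the others. Foxj1 differed by 1.54 and 0.29 in the mice with names in 8 and 9.

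Microglial markers were positive in 13 of 13 tested genes, with a median of 0.30 and a single DEG, Tyrobp, a signalling adaptor (0.49 ± 0.72; exact p = 0.0859), whose call is lost without mouse 8_13, 8_14 or 9_20. Their sum was higher ipsilaterally in 8 of 9 mice, and the log2 ratio had a mean of 0.29 ± 0.63. The exception was mouse 9_15, where the sum was lower on the injured side (log2 ratio of -1.21). The part of microglial RNA in the complement genes was not tested. Of 14 markers of infiltrating immune cells only Lyz2, which microglia also express, passed the filter on TPM (0.27, no DEG), with Ptprc at means of 0.838 and 0.578 TPM and Cd3e at 0.352 and 0.406 TPM. Haemoglobin genes differed by -0.37 to -0.41 without a call.

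**Figure D4:**
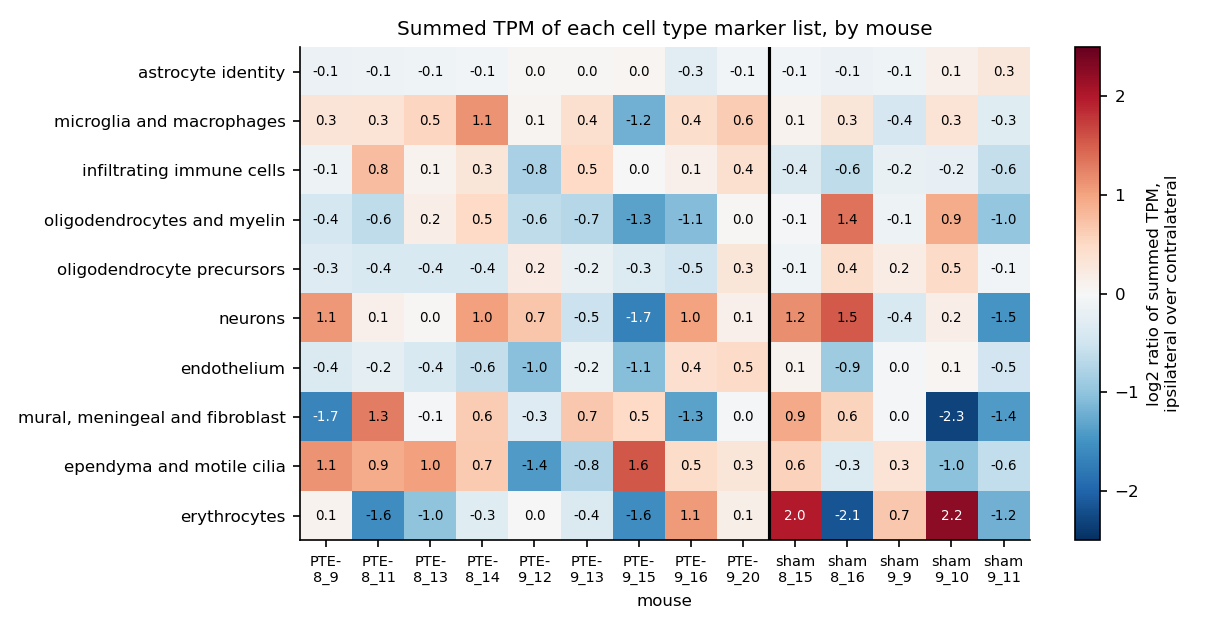
Each cell gives the log2 ratio of summed TPM, ipsilateral over contralateral, for 1 list of cell type markers (rows) in 1 mouse (columns, 9 PTE- mice left of the black line and 5 sham mice right of it). Astrocyte identity genes stay close to 0 in all mice, whereas myelin, ependymal, neuronal, meningeal and haemoglobin sums swing by more than 1 in both groups.

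In sham mice the sides also differ by the craniectomy and by the deposited table (1 table per hemisphere), but not by an impact. Gfap differed there by -0.21 (2 of 5 mice higher), C4b by -0.06, Serpina3n by -0.15, Cntf by -0.21, Ucma by -0.13 and Lcn2 by -0.05. The difference between hemispheres was therefore compared between PTE- and sham mice as an interaction in limma, which tests the difference itself. Of 10716 tested genes 706 (6.59%) were DEGs, 632 with a more positive difference in PTE- and 74 with a more negative one, and 743 genes passed on the unadjusted p alone. After Benjamini-Hochberg adjustment in limma 0 genes were called (smallest adjusted p 0.323). The median over all tested genes was 0.087. In sham mice alone the median was -0.091, and 691 of 732 DEGs were lower on the ipsilateral side, with 762 genes passing on the unadjusted p alone and 0 after adjustment in limma. After quantile normalization 250 of 560 and after median centring 245 of 747 DEGs were more positive, with medians of -0.013 and -0.041, so the direction of the whole set depends on the scaling.

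The reactive genes differed from sham by more than this shift. C4b exceeded sham by 1.32 ± 0.24 (SE; exact permutation p over mouse labels = 0.000999), Serpina3n by 1.2 ± 0.27 (exact p = 0.003), Gfap by 1.45 ± 0.35 (exact p = 0.005), Cntf by 2.06 ± 0.55 (exact p = 0.00749) and Ucma by 1.89 ± 0.48 (exact p = 0.00599). Vim exceeded sham by 1.12 ± 0.28 (exact p = 0.00649), and 5 of 5 sham mice were lower on the ipsilateral side. Slc43a3 exceeded sham by 2.34 ± 0.45 (exact p = 0.000999) and Mgst1 by 0.71 ± 0.19 (exact p = 0.00649). Olig2 was below sham by 0.56 ± 0.14 (exact p = 0.000999).

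Several of the largest values rest in part on the contralateral libraries of sham mice 8_16 and 9_10. Slc47a1 stood at 14.6 and 50.4 TPM in them against 1.5 to 1.55 TPM in the other sham contralateral libraries, and Lcn2 at 78.6 and 21.7 TPM against 0.00 to 0.81. Lcn2 was also high in their ipsilateral libraries, at 38.25 and 21.04 TPM, against 0 to 1.35 TPM in the other sham ipsilateral libraries. Both values exceed the PTE- ipsilateral median of 10 TPM. Without those mice, a choice made after the values were seen, 464 genes were DEGs (356 more positive), and the excess over sham was 1.82 for Slc47a1 in place of 3.25, 2.23 for Lcn2 in place of 2.55, 1.63 for Ccn3 in place of 2.37 and 1.64 for C3 in place of 1.98, all still DEGs. C4b (1.38), Gfap (1.72), Serpina3n (1.2), Cntf (2.22), Ucma (1.89) and Olig2 (-0.61) kept their calls as well. Penk, at 1.10 with all sham mice, was at 0.50 without them and no DEG. Calls were also lost for Aspg (0.43 in place of 0.67), Lamb2 (0.36 in place of 0.64), S100a6 (0.48), Il6st (0.56), Hspb8 (0.38), Fxyd1 (0.32), Bbox1 (0.66) and Aqp4 (0.38).

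Against sham, calls among myelin genes rested on few mice. Mog was below sham by 1.25 ± 0.50 (exact p = 0.0574), Hapln2 by 1.11 ± 0.51 (exact p = 0.0814) and Tmem125, a membrane protein of oligodendrocytes, by 1.33 ± 0.54 (exact p = 0.0519). Sham mice 8_16 and 9_10 had more myelin RNA on the ipsilateral side, with log2 ratios of the summed list of 1.35 and 0.92, and without them Mog was at -0.58 and Hapln2 at -0.50, both without a call. Tmem125 did not pass the filter on TPM without them. Mobp, Mbp, Mal and Bcas1, which were lower DEGs in PTE- mice, differed from sham by -0.95, -0.88, -0.48 and -0.78 without a call. Without sham mice 8_16 and 9_10 these differences were -0.16, -0.11, -0.10 and -0.09. Tfrc, Vegfc, Gm2026 and Rhobtb1 were also lower ipsilaterally in sham mice, by 0.43, 0.40, 0.95 and 0.48, and differed from sham by -0.14, -0.31, 0.16 and -0.15 without a call. Rasd1, Cytl1, Idi1, Hes1 and Msmo1 were likewise lower ipsilaterally in sham mice, by 0.87, 0.46, 0.25, 0.27 and 0.17. Tyrobp and Cck were higher ipsilaterally in sham mice, by 0.44 and 0.60. In this order they differed from sham by 0.28, -0.47, -0.12, -0.11, -0.19, 0.06 and -0.04, again without a call. Scg2 and Hmox1 were higher ipsilaterally in sham mice too, by 0.24 and 0.20, and differed from sham by 0.09 and 0.07 without a call. Gm17604, Gm10974 and Zfp433, which the comparison with sham mice adds at 2.81, -2.36 and -0.73, are predicted or zinc finger genes. Without mice 8_16 and 9_10 the calls of Gm10974 (-0.78) and Zfp433 (-0.65) were lost as well. Gm17604 was at 0 in 8 of 9 contralateral and 7 of 9 ipsilateral PTE- libraries.

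**Figure D5:**
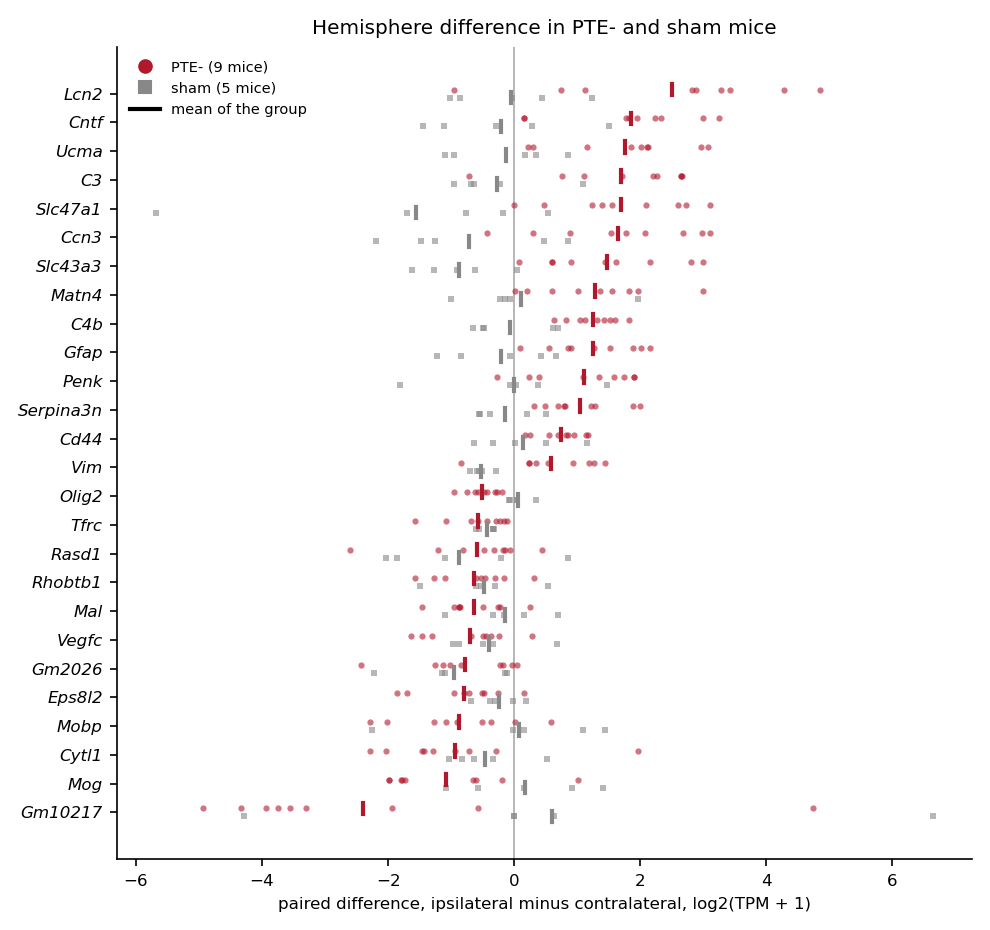
The paired difference (ipsilateral minus contralateral, log2(TPM + 1)) of single genes is plotted for each of 9 PTE- mice (red circles) and 5 sham mice (grey squares), with thick bars at the group means. For Gfap the means are 1.25 and -0.21, for C4b 1.26 and -0.06, while for Tfrc (-0.57 and -0.43) and Gm2026 (-0.78 and -0.95) they lie close together.

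In the 3 mice with epilepsy (PTE+) that had both hemispheres, the difference was 1.12 for Gfap (0.54 to 1.43), 1.12 for C4b (0.04 to 1.84), 1.14 for Serpina3n (0.90 to 1.48), 2.37 for Cntf (1.49 to 2.87) and 1.37 for Ucma (0.53 to 1.79). Slc47a1 and Ccn3 were at -0.50 and -0.29 and Penk at -0.42 in them. These values are given side by side, and a difference between PTE- and PTE+ mice was not tested.

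The spread of differences over all tested genes was smallest in mouse 8_13 (SD 0.399) and largest in mouse 9_15 (SD 0.571), and the median ran from -0.153 in mouse 8_14 to 0.175 in mouse 9_15. Genes at least 2-fold higher ipsilaterally numbered from 126 in mouse 9_13 to 348 in mouse 9_15. Mouse 9_12 went against the group for several leading genes, with C3 at -0.72, Vim at -0.85 and Ccn3 at -0.43, although its Gfap difference was 2.01. Without it, 846 genes were DEGs (610 higher) and 30 had an adjusted p under 0.05 in limma.

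The reactive genes were higher on the injured side under both prefixes of the mouse name. In mice with names in 8 and 9 the differences were 1.27 and 1.23 for Gfap, 1.37 and 1.17 for C4b, 0.80 and 1.25 for Serpina3n, 1.64 and 2.03 for Cntf, 1.79 and 1.73 for Ucma and 2.56 and 2.45 for Lcn2. Counts differed more than these values. The 4 mice with names in 8 gave 1578 DEGs, 779 higher, with 249 genes at an adjusted p under 0.05 in limma, and the 5 with names in 9 gave 479 DEGs, 348 higher, with 1.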

How the data were processed

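Astrocyte RNA of each hemisphere was sequenced after SMART-Seq v4 amplification, which does not mark strand. The authors trimmed reads with Trim Galore 0.6.4, aligned them with Bowtie2 2.4.1 to mm10 and quantified them with RSEM 1.2.28. The deposited values are TPM per gene and library, 1 table per hemisphere, with 21975 Ensembl identifiers, of which 21856 had a symbol. The study's own tests used DESeq2 1.36.0 on counts, which were not used here. TPM keep no depth, so counting error is unknown.

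Libraries were grouped and paired by mouse from the labels. Genes were tested if their mean exceeded 5 TPM in 1 or more of the compared groups, on log2(TPM + 1) with limma 3.58.1 (R 4.3.3) with the mouse as a block, and called DEGs where the unadjusted p was below 0.05 with a change of 1.2-fold or more, after the study's definition; Benjamini-Hochberg adjusted p-values are given beside. Fold changes on this scale understate the change of low genes. Values after ± are SDs over mice unless marked SE. Exact p-values of single genes are two-sided, from all 512 sign flips of the 9 pairs or all 2002 relabellings of 14 mice. A gene that moved the same way in 9 of 9 mice always has a sign-flip p of 0.00391. For genes named because they moved the same way in at least 8 mice, or had a small limma p, it is no independent support. The scripts were tested on simulated data. Same-mouse libraries deviated together from their hemisphere means (median correlation over genes 0.485, 0.007 to 0.687, n = 9 mice; -0.070 over 72 pairings of different mice), and 5 of 9 correlated best with their own partner.

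Members and gene lists were chosen with earlier results of these data known. Named genes were all genes at an adjusted p under 0.05, the 10 DEGs with the largest rise and the 10 with the largest fall among those moving the same way in at least 8 mice, up to 4 tested members per list with the smallest p, a fixed set (Gfap, Vim, Serpina3n, C3, C4b, Cntf, Ucma, Lcn2, Aqp4, Slc1a2, Kcnj10, Gja1, Cst3, Pam, Fos and Mog), and the 5 DEGs furthest above and below sham. Gm11032, Serpina3i, Timp1, S1pr3 and other list members without a full set of values were named outside this rule after their values were seen. Alternatives were another pseudocount (0.1), other filters (1 TPM, none), quantile normalization, median centring, array weights, other fold limits (none, 1.5), no block, no variance trend, each mouse left out and each name prefix alone. Leaving out sham mice 8_16 and 9_10 was chosen after seeing the data. Promoters came from RefSeq on GRCm38.p6, with 8218 of 10359 tested genes matched by symbol. The values of a few list members are not reported here. Figures were drawn with matplotlib 3.10.9.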

Additional observations from a re-analysis of the deposited data

Results flagged for a closer look

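The hemisphere difference in PTE- mice differed from that in sham mice, in limma at an unadjusted p under 0.05 and at least 1.2-fold, for 36 of the 76 named genes, against 6.59% of all tested genes, and for 0 genes at an adjusted p under 0.05. Many of these genes were named for their difference in PTE- mice. Some were named as the DEGs furthest above or below sham, and are therefore among the 36 by construction. For both reasons the count is no independent support, and its share cannot be weighed against that of all tested genes. The excess over sham was 1.32 for C4b, 1.45 for Gfap, 1.2 for Serpina3n, 1.12 for Vim, 0.60 for Cd44, 0.47 for S100a6, 0.67 for Aspg and 2.55 for Lcn2. It was 1.98 for C3, 2.06 for Cntf, 0.52 for Il6st, 1.89 for Ucma, 2.37 for Ccn3, 2.34 for Slc43a3, 3.25 for Slc47a1, 1.18 for Matn4 and 0.64 for Lamb2. It was 0.71 for Mgst1, 0.57 for Nqo1, 0.42 for Hspb8, 0.73 for Bbox1, 0.35 for Fxyd1, 0.35 for Aqp4, 0.76 for Gria1, 1.52 for Foxj1, 0.62 for Gad1, 1.10 for Penk, 0.61 for Nnat and 2.81 for Gm17604. Negative values were -0.56 for Olig2, -1.25 for Mog, -1.11 for Hapln2, -1.33 for Tmem125, -0.36 for Tsc22d3, -0.73 for Zfp433 and -2.36 for Gm10974. Without sham mice 8_16 and 9_10 the calls of S100a6, Aspg, Il6st, Lamb2, Hspb8, Bbox1, Fxyd1, Aqp4, Penk, Mog, Hapln2, Zfp433 and Gm10974 were lost. Tmem125 did not pass the filter on TPM without those mice, and its call was lost without sham mouse 9_10 alone (-1.02).

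Single mice lay far from the rest of their group for 8 values, among the PTE- and sham groups of the 76 named genes. Chance alone flags about 1 in 20 groups, so 8 is about the number that chance gives. Among PTE- mice these were mouse 8_9 for Gm10217 (4.75), 9_20 for Cytl1 (1.97), 9_12 for Scg2 (-0.45) and mouse 9_15 for Tyrobp (-0.96), Nqo1 (1.30) and Gm10974 (-1.72). Among sham mice they were 9_9 for Hes1 (0.53) and 8_16 for Pam (0.16).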

How the results depend on the processing

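C4b, Gfap, Serpina3n, Cntf, Lcn2, C3, Ucma and Olig2 kept their direction and their call without each mouse in turn. Of 65 named DEGs, 44 kept the call in each of these fits that tested them. Cytl1 and Rhobtb1, counted among them, passed the filter on TPM in 8 of the 9 fits. The 616 DEGs became 935 with no fold limit, 124 at 1.5-fold, 1578 in mice with names in 8, and 509 to 846 without single mice (highest without 9_12). The 1 gene at an adjusted p under 0.05 in limma became 5 with a filter at 1 TPM, 6 after quantile normalization, 9 after median centring, 17 with array weights, 249 in mice with names in 8, and 1 to 30 without single mice. The 706 DEGs against sham became 1165 with no filter, 464 without sham mice 8_16 and 9_10, and 392 (without sham mouse 9_10) to 991 (without sham mouse 9_11) without single mice.

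Without the mouse as a block, that is without the pairing, 360 genes were DEGs and 2 had an adjusted p under 0.05 in limma, and 240 were DEGs against sham; 15 named DEGs lost the call. Directions turned for Mbp in mice with names in 8 (0.03), Gja1 in those with names in 9 (0.09), Cst3 after quantile normalization (-0.00), Kcnj10 in mice with names in 8 (0.02) and without single mice (-0.14 to 0.05; 0.00 without 9_15), and Fos in mice with names in 8 (-0.57) and without single mice (-0.07 to 0.38; -0.02, -0.04, -0.05 and -0.06 without 8_11, 9_13, 9_16 and 9_20). The cause was not tested. Depth is unknown for TPM, and genes listed at 0 may lie below detection.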
